A study of Homo sapiens with 4 samples.

Results

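The nuclear RNA polymerase subunit genes were taken as every gene whose symbol in the platform's annotation starts with POLR1, POLR2 or POLR3. The rule found 33 genes, read by 58 probes, of the 20046 genes named on the array. They comprised 6 subunits found in polymerase I alone, 2 shared by polymerases I and III, 5 shared by polymerases I, II and III, 9 of polymerase II alone and 9 of polymerase III alone. The pseudogene POLR2J4 and POLR2M, whose product associates with polymerase II without being a core subunit, were kept apart.

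The samples were H23 cells, an established human lung cancer line. A group of 2 samples overexpressed the SOXF transcription factor SOX7, and the control group of 2 samples overexpressed green fluorescent protein (GFP). RNA was taken at near confluence, and polyA RNA was read on Illumina HumanHT-12 v4 BeadChips. Both groups therefore carry an introduced gene in 1 cell line, and neither the vector and its promoter nor the time after introduction is stated in the labels. Differences are SOX7 minus control on the log2 scale throughout. Where a standard error (SE) is given, it is that of a limma fit over the whole table. Gaps between the changes of 2 genes carry no SE. A gene is called past the threshold where its Benjamini-Hochberg adjusted p over the 12804 genes tested was under 0.05. The polymerase genes were grouped with this contrast already known, so their differences and calls are a description and test nothing about the enzymes. In bulk RNA, a change in RNA per cell and a change in the mix of cells cannot be told apart.

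RNA polymerase I transcribes the large ribosomal RNA precursor in the nucleolus. Polymerase II makes messenger RNA and many small nuclear RNAs, and polymerase III makes transfer RNA, the shortest ribosomal RNA and other short transcripts. Each enzyme is built around a pair of large catalytic subunits, an assembly platform of alpha-like subunits, a set of small subunits common to the 3 enzymes, and a stalk. Polymerases I and III also carry built-in subunits that act like the separate initiation factors of polymerase II. The products of polymerases I and III supply ribosomes and translation, and their output follows the growth of a cell.

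Each array held 48107 probe values with the same median of 6.26, and the arrays correlated at 0.995 within each group and 0.990 between groups. Nothing in the labels ties the samples of a group to separate cultures, so the spread behind every SE may be technical. The SOX7 probe read 6.18 and 6.45 in the control arrays and 6.53 and 6.78 in the arrays labelled SOX7 (0.34, SE 0.12), which was not past the threshold. Whether that probe reads the introduced transcript is not known, so it does not check the labels. Of 9 lung epithelial markers, 4 lay above the intensity filter of 6.25, with KRT18 at 8.57 and KRT8 at 8.11 in control cells, and CDH1, NKX2-1, NAPSA, SFTPB and KRT19 lay below it. The log2 of the summed intensity of these 9 ran from 10.14 to 10.17 in control and from 10.37 to 10.39 in SOX7 arrays. KRT18 was past the threshold (0.45). The brightest probes of KRT8, EPCAM, KRT19 and NKX2-1 also had higher means in SOX7 cells, and those of KRT7, CDH1, NAPSA and SFTPB lower means. The log2 of the summed intensity of 3 leukocyte markers was 9.26 and 9.25 in control and 9.83 and 9.72 in SOX7 arrays. Of the 3, CD14 was past the threshold (0.64), and PTPRC and CD3E lay below the filter. The sum over 5 endothelial markers, none of them above the filter, was 8.36 to 8.39 in control and 8.19 to 8.30 in SOX7 arrays. That over 4 fibroblast markers was 8.34 to 8.45 in control and 8.28 to 8.32 in SOX7 arrays. The part of these shifts in the results was not tested.

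Of the 33 polymerase genes, 6 were past the threshold, all of them higher in SOX7 cells: POLR2A, POLR2B and POLR2D of polymerase II, POLR3B and POLR3G of polymerase III and POLR1E of polymerase I. That is 18.2% of the polymerase genes beside 18.8% of all genes tested, a share close to the background. By direction, 6 of 33 were higher, beside 8.98% of all genes tested, and 0 of 33 were lower, beside 9.83%. All 33 genes had passed the intensity filter, which uses the mean of the 4 arrays. Control and SOX7 arrays did not overlap for 19 of the 33, namely 15 higher (background 29.6%) and 4 lower (background 29.0%). Together these 19 made up 57.6% of the genes, beside 58.5% of all genes tested. The median difference over the 33 genes was 0.071, and that over all genes tested 0.0035. Past-threshold differences lay between 0.35 and 0.61, and the other 27 genes lay between −0.24 and 0.26.

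**Figure D1:**
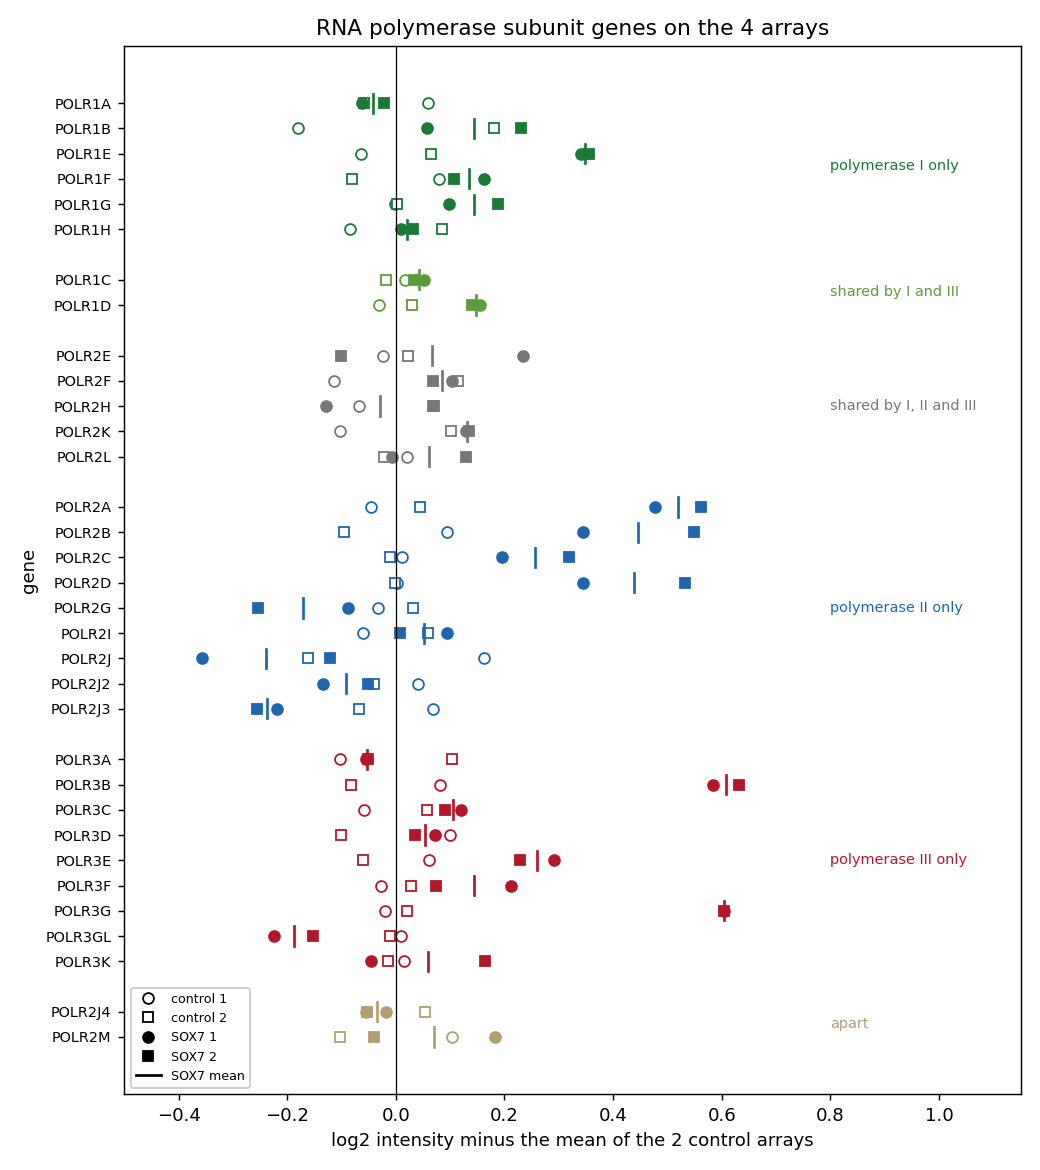
Log2 intensity of each of the 33 polymerase genes on each array, minus the mean of the 2 control arrays (x axis). Rows are genes grouped by class, open symbols are control arrays, filled symbols SOX7 arrays, and the vertical tick is the SOX7 mean. The filled symbols of POLR2A, POLR2B, POLR2D, POLR3B, POLR3G and POLR1E stand to the right of their open symbols, with means 0.35 to 0.61 above 0.

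The catalytic pairs differed from enzyme to enzyme. POLR2A encodes the largest subunit of polymerase II, which carries the repeated C-terminal domain that is phosphorylated during transcription. It read 10.35 and 10.44 in the control arrays and 10.87 and 10.95 in the SOX7 arrays, so the groups stood clear of each other. The difference was 0.52 (SE 0.089), or 1.43-fold, and POLR2A was past the threshold under 21 of the 21 settings tried. Some settings could not lose the call, such as a threshold of 0.1. Median centring and repeated quantile normalization could not either, as the arrays already share the same sorted values. POLR2B, the catalytic partner of POLR2A, read 9.89 and 9.70 in control and 10.14 and 10.34 in SOX7 cells. The SOX7 arrays were again both above the controls, by 0.45 on average (SE 0.10; 1.36-fold). The gap between the nearest arrays was narrower than for POLR2A, and POLR2B was no longer past the threshold without control replicate 2 (0.35) or without SOX7 replicate 2 (0.35).

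In polymerase III the partners of the catalytic pair separated. POLR3B, the second largest subunit, read 8.95 and 8.78 in control and 9.45 and 9.50 in SOX7 cells, a difference of 0.61 (SE 0.092; 1.52-fold). POLR3A, the largest subunit, read 7.88 and 8.08 in control and 7.93 and 7.93 in SOX7 cells. The POLR3A groups overlapped, with a difference of −0.053 (SE 0.095), and its second probe differed by 0.020. The change of POLR3B thus exceeded that of POLR3A by 0.66, and the difference between their probes did not overlap between the groups. In polymerase I neither partner was past the threshold. POLR1A, the largest subunit, differed by −0.042 (SE 0.089) and POLR1B by 0.14 (SE 0.12), with overlapping arrays for both. The POLR1A probe (mean 6.69) and the POLR1B probe (6.69) lay close to the array median, where no detection measure was used to separate signal from background.

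Of the 33 genes, 24 had a RefSeq promoter window (GRCh38.p14), which is shown here for the polymerase II and III genes past the threshold that have one, and for POLR3A as the partner of POLR3B that did not move with it. Each sequence is the 250 bases upstream of the annotated start, 5′ to 3′ on the gene's strand. Capitals mark the motifs searched on both strands, which are the GC box GGGCGG, the ETS core CCGGAAG, the E box CACGTG, the SOX core AACAAT and the TATA box TATAAA.
POLR2A, chr17:7484116-7484365, strand plus: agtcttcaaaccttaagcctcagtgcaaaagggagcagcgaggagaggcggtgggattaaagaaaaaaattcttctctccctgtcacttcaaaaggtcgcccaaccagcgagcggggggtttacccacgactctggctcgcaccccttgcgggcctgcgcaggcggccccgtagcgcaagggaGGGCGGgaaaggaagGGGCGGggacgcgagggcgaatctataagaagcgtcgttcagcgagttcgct
POLR2B, chr4:56978646-56978895, strand plus: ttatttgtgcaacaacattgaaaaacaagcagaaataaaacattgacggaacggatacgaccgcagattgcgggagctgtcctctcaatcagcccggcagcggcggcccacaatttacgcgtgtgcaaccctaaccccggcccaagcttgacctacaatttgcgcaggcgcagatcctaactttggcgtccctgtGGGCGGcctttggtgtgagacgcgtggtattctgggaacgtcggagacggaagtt
POLR2D, chr2:127858156-127858405, strand minus: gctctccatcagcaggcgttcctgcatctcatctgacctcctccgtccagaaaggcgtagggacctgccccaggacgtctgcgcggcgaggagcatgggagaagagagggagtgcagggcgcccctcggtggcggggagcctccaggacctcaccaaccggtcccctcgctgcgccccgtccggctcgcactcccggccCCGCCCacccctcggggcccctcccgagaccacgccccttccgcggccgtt
POLR3B, chr12:106357498-106357747, strand plus: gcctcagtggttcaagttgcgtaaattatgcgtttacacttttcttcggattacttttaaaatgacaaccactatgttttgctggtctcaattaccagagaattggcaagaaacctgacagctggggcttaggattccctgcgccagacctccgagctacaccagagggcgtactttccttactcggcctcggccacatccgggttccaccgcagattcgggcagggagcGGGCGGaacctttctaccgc
POLR3A, chr10:78029516-78029765, strand minus: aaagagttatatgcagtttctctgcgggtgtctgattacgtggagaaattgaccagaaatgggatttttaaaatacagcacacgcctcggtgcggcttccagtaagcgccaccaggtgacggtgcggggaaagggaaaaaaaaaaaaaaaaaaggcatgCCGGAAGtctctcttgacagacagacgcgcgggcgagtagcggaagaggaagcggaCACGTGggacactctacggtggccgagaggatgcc

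The 4 promoters of genes past the threshold each held a GC box, the motif read by Sp1-like factors, and none of the other 4 motifs. POLR2A held 2, at −67 and −52 from the start site, POLR2B 1 at −55, POLR2D 1 at −51 and POLR3B 1 at −20. The POLR3A window held no GC box but an ETS core at −91 and an E box at −35, and no base lay in 2 motifs. GC boxes are common: they lay in 42.6% of all 35116 windows of this length and in 21 of the 30 windows of polymerase genes (70%). Of the 24 genes with a window, 16 held a GC box, namely the 4 past the threshold and others that were not. The others were POLR1B, POLR1C, POLR1D, POLR2E, POLR2H, POLR2J2, POLR2L, POLR2M, POLR3C, POLR3E, POLR3GL and POLR3K. The ETS core lay in 8.52% of all windows and in 8 of the 30 (26.7%). These were windows of POLR1B, POLR1C, POLR2C, POLR2F, POLR2J2, POLR3A and POLR3C, none of them past the threshold. With only 4 of the 24 genes past it, the windows cannot tie a motif to the calls. The E box lay in 6.34% of all windows and in 3 of the 30. The SOX core lay in 8.98% of all windows and in 1 of the 30, that of POLR1A, whose arrays overlapped. The TATA box lay in 10.7% of all windows and in 1 of the 30, that of POLR2M. Windows of 1 gene overlap in part, and a match describes the letters and not a bound site. The base composition differed, with a median GC content of 61.6% in the windows of polymerase genes and 58% in all windows.

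The remaining polymerase II subunits went both ways. POLR2D forms the stalk of polymerase II together with POLR2G. POLR2D read 8.80 and 8.80 in control and 9.14 and 9.33 in SOX7 cells, a difference of 0.44 (SE 0.094; 1.35-fold), and was no longer past the threshold without SOX7 replicate 2 (0.34). POLR2G read 12.07 and 12.13 in control and 12.01 and 11.85 in SOX7 cells, a difference of −0.17 (SE 0.093). The stalk genes thus lay on opposite sides of 0, and POLR2G was not past the threshold although its SOX7 arrays were both below its controls. The change of POLR2D exceeded that of POLR2G by 0.61.

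POLR2C and POLR2J form the alpha-like platform on which polymerase II is assembled. POLR2C read 10.03 and 10.004 in control and 10.21 and 10.33 in SOX7 cells, a difference of 0.26 (SE 0.089) that was not past the threshold. Its second probe differed by 0.37 and passed when every probe was fitted on its own, and averaging both probes gave 0.31, past the threshold. POLR2J read 8.12 and 7.80 in control and 7.61 and 7.84 in SOX7 cells, so the groups overlapped (−0.24, SE 0.12). It was past the threshold without control replicate 2, at −0.40. POLR2J2 and POLR2J3 are near-identical copies of POLR2J on chromosome 7, so short probes may not tell the 3 genes apart. POLR2J3 differed by −0.24 (SE 0.090) and POLR2J2 by −0.092 (SE 0.089), with SOX7 arrays below the controls for both. Neither was past the threshold. POLR2J3 passed as lower under 3 of 21 settings, namely the filter at the 75th percentile, the trend and robust prior and a threshold of 0.1. Its second, dimmer probe went the other way, at 0.066, and the mean of both was −0.086. POLR2I, a small subunit at the edge of the cleft, differed by 0.051 with overlapping arrays.

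Across the 9 genes of polymerase II alone, 3 were past the threshold, all higher, and the median difference was 0.051. The 3 are 33.3% of the class, beside 18.8% of all genes tested past it in either direction and 8.98% past it and higher. Counting the locus once, through POLR2J, gave a median of 0.26, and leaving out POLR2J as well gave 0.35, both choices made after the values were seen. The 12 probes of the pseudogene POLR2J4 had means of 5.79 to 6.58, close to or below the array median, and differences of −0.27 to 0.10. POLR2M, which encodes the Gdown1 protein that associates with polymerase II, had a brightest probe at 6.51 that differed by 0.071, and its other 3 probes lay below the filter.

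**Figure D2:**
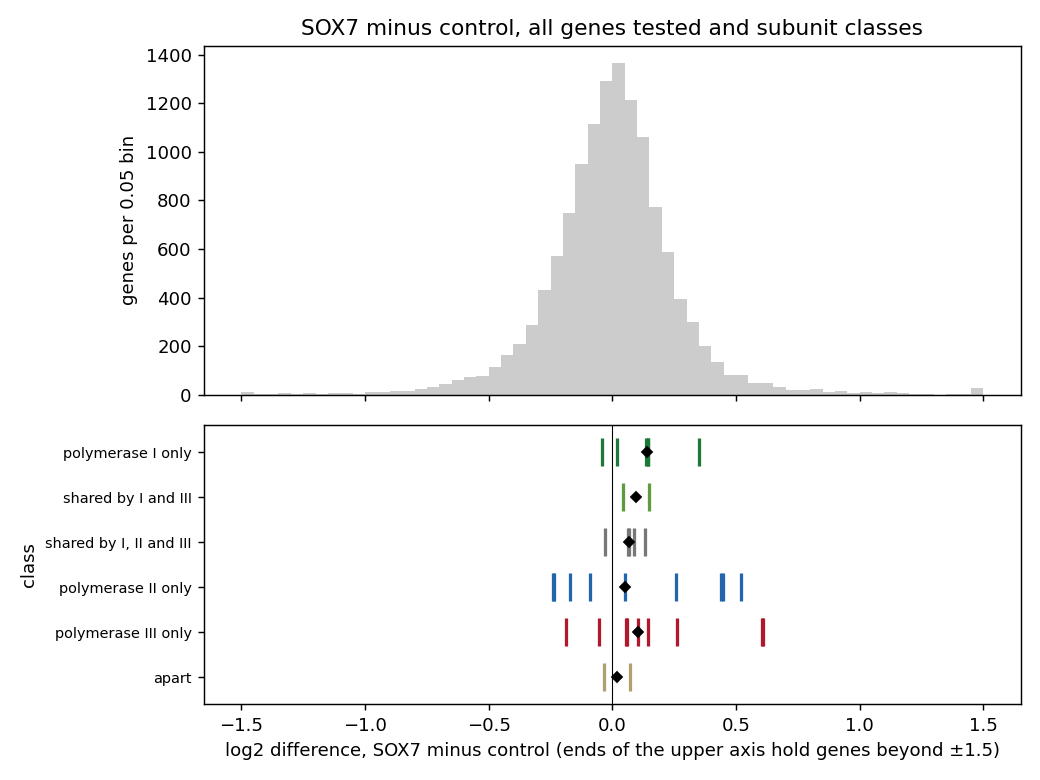
The upper panel is a histogram of the log2 difference, SOX7 minus control, over the 12804 genes tested, in bins of 0.05. The lower panel marks each polymerase gene as a tick by class, with the class median as a diamond. The polymerase II and III ticks spread from −0.24 to 0.61, and those of subunits shared by the 3 enzymes lie between −0.029 and 0.13. The 25th and 75th percentiles of all genes tested are −0.14 and 0.13.

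In polymerase III, a trimer of POLR3C, POLR3F and either POLR3G or POLR3GL opens the promoter with the initiation factors. POLR3G and POLR3GL are paralogues that occupy the same place. POLR3GL is the form widespread in adult tissues, and POLR3G is known from stem cells and tumour cells. POLR3G read 8.92 and 8.96 in control and 9.54 and 9.54 in SOX7 cells, a difference of 0.60 (SE 0.086; 1.52-fold). POLR3GL read 9.69 and 9.67 in control and 9.46 and 9.53 in SOX7 cells, a difference of −0.19 (SE 0.087) that was not past the threshold. Neither gene's arrays overlapped between the groups, and the 2 paralogues lay on opposite sides of 0. The changes differed by 0.79. The second POLR3G probe differed by 0.54 and passed when fitted on its own, and the dimmest, below the filter at 6.14, differed by −0.091. POLR3B and POLR3G were past the threshold under 21 of 21 settings, some of which could not lose the call. The mean of the 3 POLR3G probes brought its difference down to 0.35.

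The partners of POLR3G in the trimer, POLR3C (0.11, SE 0.089) and POLR3F (0.14, SE 0.091), had SOX7 arrays above the controls without being past the threshold. POLR3D and POLR3E form a heterodimer that takes part in initiation and termination. POLR3E read 8.74 and 8.62 in control and 8.97 and 8.91 in SOX7 cells (0.26, SE 0.090). It was not past the threshold with the settings used here and passed under 6 of 21. POLR3D differed by 0.053 with overlapping arrays, at a mean of 6.66, close to the array median. POLR3K, which takes part in RNA cleavage and termination, differed by 0.059, and its arrays overlapped. Across the 9 genes of polymerase III alone, 2 were past the threshold, both higher. That is 22.2%, close to the 18.8% of all genes tested past it in either direction, and beside 8.98% past it and higher. Of the 9, 7 lay above 0, as did 50.8% of all genes tested, and the median difference was 0.11.

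Among the 6 genes of polymerase I alone, POLR1E was the one past the threshold, as higher. That is 16.7%, beside 18.8% of all genes tested past it in either direction and 8.98% past it and higher. POLR1E encodes a subunit that binds POLR1G as a heterodimer and acts like a built-in initiation and elongation factor. POLR1E read 11.08 and 11.21 in control and 11.49 and 11.51 in SOX7 cells, a difference of 0.35 (SE 0.090; 1.27-fold). Its second probe moved further, from 8.78 and 9.02 to 9.54 and 9.57, a difference of 0.65 that passed when fitted on its own. The call on the brighter probe ended without control replicate 1 (0.28), without SOX7 replicate 1 (0.36) and without SOX7 replicate 2 (0.34). POLR1G, the partner, read 8.49 and 8.49 in control and 8.59 and 8.68 in SOX7 cells, a difference of 0.14 (SE 0.088) that was not past the threshold. POLR1F, a stalk subunit that meets the initiation factor RRN3, differed by 0.13 (SE 0.092), with SOX7 arrays above the controls. POLR1H, which takes part in RNA cleavage, differed by 0.021, with overlapping arrays and further probes at 0.077 and −0.022. The median difference of the 6 genes was 0.14.

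**Figure D3:**
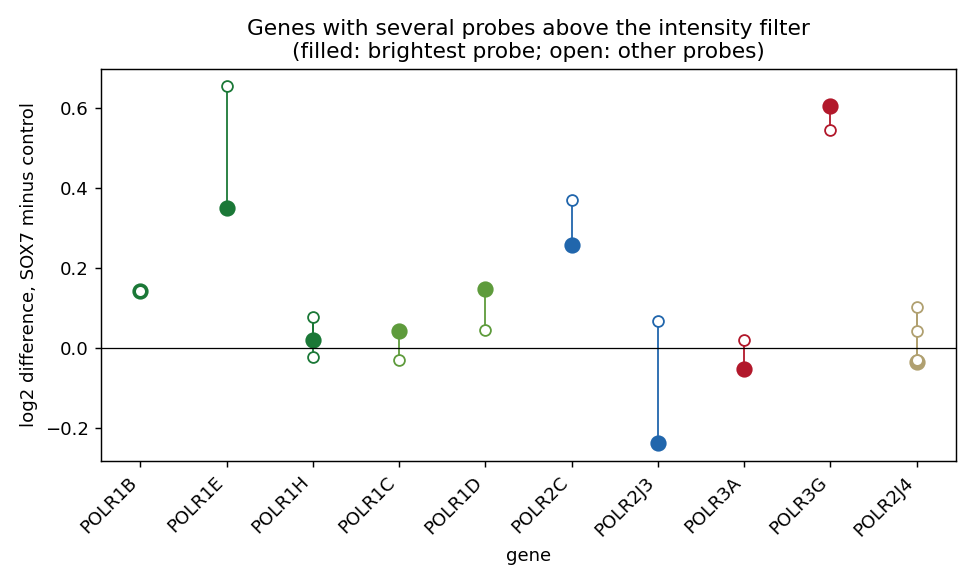
Log2 difference, SOX7 minus control (y axis), for each probe above the intensity filter of the 10 polymerase genes that have several such probes (x axis). Filled points are the brightest probe, which gives the gene's value, and open points the others. Both probes of POLR1E, POLR2C and POLR3G lie above 0.25, and the POLR2J3 probes lie on opposite sides of 0.

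The differences of the shared subunits lay between −0.029 and 0.15. POLR1C and POLR1D form the alpha-like platform of polymerases I and III. POLR1D read 11.85 and 11.91 in control and 12.03 and 12.02 in SOX7 cells (0.15, SE 0.086), and its second probe differed by 0.046. POLR1C differed by 0.043 (SE 0.086), with a second probe at −0.031. Of the 5 subunits common to the 3 enzymes, 0 were past the threshold, beside 18.8% of all genes tested. POLR2F differed by 0.086, POLR2E by 0.067, POLR2L by 0.061 and POLR2H by −0.029, and their arrays overlapped. Among these the SOX7 arrays lay furthest apart for POLR2E, at 7.34 and 7.01. POLR2K differed by 0.13 (SE 0.095), with SOX7 arrays at 7.39 and 7.40 above controls at 7.16 and 7.37. Over these 5 genes the SE ran from 0.090 to 0.11 and exceeded the size of the difference for 4 of them.

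Adjacent genes along a chromosome can shift together, so each polymerase gene was set beside its neighbours. The median difference of each gene together with the 50 tested genes on either side was 0.11 for POLR1E on chromosome 9, 0.11 for POLR2B on chromosome 4, 0.11 for POLR3B on chromosome 12 and 0.089 for POLR2D on chromosome 2. It was 0.045 for POLR3G on chromosome 5 and 0.020 for POLR2A on chromosome 17. With this local median removed, 5 of the 6 genes stayed past the threshold, and POLR1E (0.24) did not. POLR2C and POLR3E on chromosome 16, where the neighbours lay at −0.087 and −0.086, were then past the threshold at 0.34 and 0.35. POLR1B on chromosome 2 lay at the level of its neighbours (0.14), and its difference after removal was 0.0024.

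**Figure D4:**
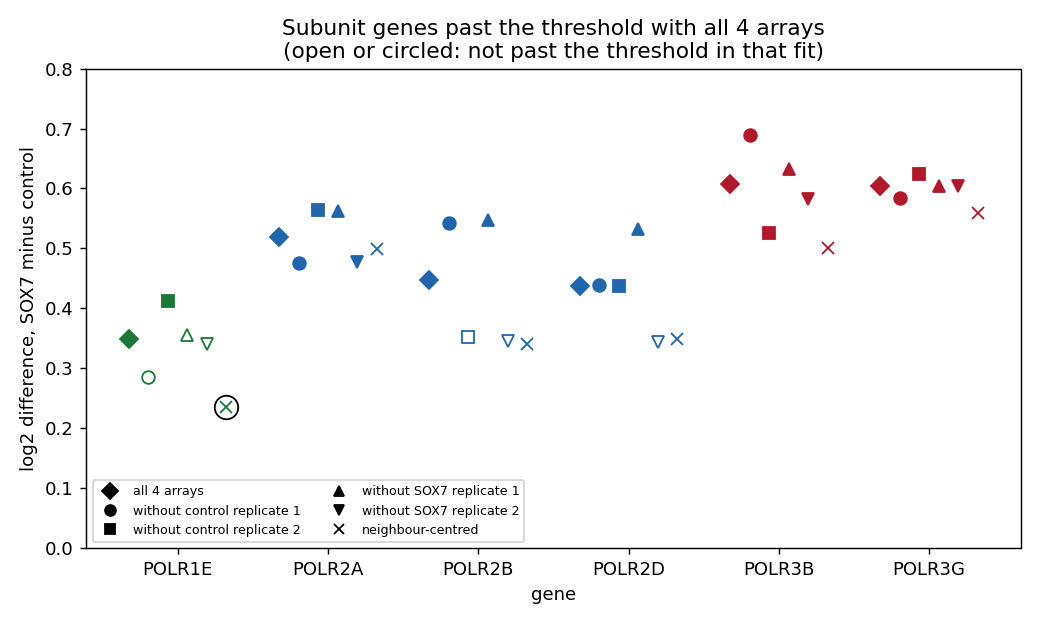
Log2 difference, SOX7 minus control (y axis), of the 6 polymerase genes past the threshold, with all 4 arrays, without each array in turn and with the local chromosomal median removed. Filled symbols are past the threshold in that fit, and open or circled ones are not. POLR2A, POLR3B and POLR3G are past it in each of the 6 fits shown, and POLR1E in 2 of them.

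The factors that work with the polymerases were compared as 6 lists, 94 genes in all, of which 90 were tested. Of these, 7 were past the threshold and higher and 1 was past it and lower. That is 8.89%, beside 18.8% of all genes tested, and the median difference was 0.065. For the factor lists, rose and fell mean past the threshold in that direction. Of the polymerase I initiation factors, 0 of 7 were past the threshold in either direction (median 0.083). TAF1D (0.22) and TAF1A (0.20), subunits of the selectivity factor, TTF1, a termination factor (0.12), and UBTF, which binds ribosomal DNA (−0.11), had the smallest p. Of the polymerase III initiation factors, 0 of 15 were past the threshold in either direction (median −0.011). The smallest p were those of GTF3C3 (0.21), GTF3C1 (−0.20), BRF1 (−0.28) and GTF3A (−0.18). GTF3C3 and GTF3C1 are subunits of the factor that binds promoters within genes. BRF1 bridges to the TATA-binding protein, and GTF3A is the factor of the gene for the shortest ribosomal RNA.

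Of the polymerase II initiation factors, 2 of 30 rose and 1 fell (median 0.057). Together that is 10%, beside 18.8% of all genes tested. The DNA helicase gene ERCC3 rose from 8.01 and 8.17 to 8.47 and 8.50 (0.40, limma adjusted p = 0.0104), and MNAT1, a subunit of the CDK-activating kinase, rose by 0.39 (limma adjusted p = 0.0121). GTF2H5, a small TFIIH subunit, was lower (−0.35, limma adjusted p = 0.0188), and GTF2H2 differed by 0.32 without passing. The products of these 4 are parts of TFIIH. Of its 10 tested genes, 2 were past the threshold and higher and 1 lower, beside 8.98% and 9.83% of all genes tested. The other 7 lay between −0.23 and 0.32. TFIIH was not one of the lists set for comparison, so this count is a description only. These calls ended for ERCC3 without control replicate 1 (0.32) or SOX7 replicate 2 (0.38), for MNAT1 without SOX7 replicate 1 (0.31), and for GTF2H5 without control replicate 2 (−0.34) or SOX7 replicate 1 (−0.28). Of the polymerase II elongation factors, 1 of 20 rose and 0 fell (median 0.098). That is 5%, beside 18.8% of all genes tested. The gene was the cyclin gene CCNT1 (0.31, limma adjusted p = 0.0393). CCNT1 passed in 1 of the 4 fits without 1 array, and was lost at 0.23 without control replicate 1, 0.35 without SOX7 replicate 1 and 0.26 without SOX7 replicate 2. It was also lost for the mean of its probes (0.15), neighbour-centred (0.19) and with no intensity filter (0.31). RTF1 (0.27), SSRP1 (0.25) and CCNT2 (0.23) did not pass.

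Of the assembly factors, which import polymerases into the nucleus or chaperone their subunits, 1 of 12 rose and 0 fell (median 0.049). That is 8.33%, beside 18.8% of all genes tested. GPN3, a GTPase of polymerase II import, read 9.28 and 9.22 in control and 9.69 and 9.67 in SOX7 cells (0.43, limma adjusted p = 0.00480) and passed in 4 of 4 fits without 1 array, but not for the mean of its probes (0.16). UXT (−0.29), RPAP3 (0.25) and PFDN2 (0.23) did not pass. Of 6 genes of mitochondrial transcription, which uses a separate single-subunit polymerase, 3 rose and 0 fell (median 0.22), beside 8.98% of all genes tested that rose and 9.83% that fell. The count was 1 with no intensity filter. TEFM (−0.25), MTERF1 (0.11) and POLRMT (−0.043), which encodes the mitochondrial polymerase, did not pass, and their arrays overlapped. The genes that rose were TFB2M (0.41, limma adjusted p = 0.0133), TFB1M (0.34, limma adjusted p = 0.0280) and TFAM (0.33, limma adjusted p = 0.0377). Each of these 3 passed in 1 of 4 fits without 1 array. The lowest values were 0.29 for TFB2M and 0.24 for TFB1M, both without control replicate 1, and 0.21 for TFAM without control replicate 2. In the fits that lost the call, TFB2M stood at 0.41 and TFB1M at 0.34 without SOX7 replicate 1, and TFAM at 0.36. Without SOX7 replicate 2 they stood at 0.40, 0.33 and 0.30.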

How the data were processed

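Expression in 2 control (GFP) and 2 SOX7 samples of H23 cells was analysed from log2 intensities as deposited, with 48107 probe values on each array. The arrays share the same sorted values to within 0.000683, so quantile normalization by the authors had been applied. No source used here names the software or a background correction, and no detection p-values were used. The number of arrays limits the precision.

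Of the probes, 30113 carried 1 gene in the platform's annotation, 8 several and 17986 none. The brightest probe gave each gene's value, and genes with a mean under the median of probe means (6.25) were left out, leaving 12804 of 20046. All 33 polymerase genes matched RefSeq (GRCh38.p14). Groups were compared with limma 3.58.1 (R 4.3.3), by moderated linear models and two-sided tests (2 residual and 11.7 moderated degrees of freedom). P-values were adjusted by Benjamini-Hochberg over the 12804 genes, with 0.05 as the threshold. The method was also run on simulated data with 200 of 12804 genes changed, fewer than the 2408 called here. That run recovered 91.3% of changes of 1.5-fold, with false calls at 4.61%, and does not check the calls made here.

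The text names every polymerase gene, markers, SOX7, and up to 4 genes with the smallest p from each factor list. For mitochondrial transcription it names all 6, and POLRMT and MTERF1 were added after the values were seen. Members and lists were chosen with earlier results of these data known. Fits made under other settings varied the filter, offset (16), probe summary, variance prior, block, normalization, threshold, arrays and chromosomal neighbours (50 genes on either side). H1299 and PC14 samples were not analysed here.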

Additional observations from a re-analysis of the deposited data

How the results depend on the processing

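The count of genes past the threshold (2408) moved to 1224 at an adjusted p under 0.01 and ran from 1529 to 1984 without 1 array, falling to 1567 without SOX7 replicate 1 and to 1529 without SOX7 replicate 2. The polymerase genes past the threshold numbered 6, and 3 without SOX7 replicate 2, with the probes chosen anew or kept from all 4 arrays (a setting added after seeing the data), in a range of 3 to 6 without 1 array. Under the other settings they numbered 4 to 9. Calls over the factor lists (8) moved to 5 with no filter, 14 with the filter at the 75th percentile, 13 with trend and robust prior, 1 at an adjusted p under 0.01 and 15 under 0.1, and ran from 3 to 10 without 1 array, with 3 without either SOX7 replicate. The median of the genes of polymerase I alone (0.14) was 0.095 neighbour-centred and ran from 0.077 to 0.15 without 1 array. That of polymerase III alone (0.11) ran from 0.091 to 0.16 without 1 array. That of POLR1C and POLR1D (0.095) was 0.051 for the mean of probes, 0.044 for every probe on its own and 0.11 neighbour-centred. That of polymerase II alone (0.051) ran from −0.0087 to 0.11 without 1 array, and was 0.26 without POLR2J2 and POLR2J3 and 0.35 without POLR2J as well, both chosen after the values were seen. GPN3 did not pass for the mean of probes (0.16), and POLR3G stood there at 0.35. No polymerase gene past the threshold changed sign under any setting. With the replicate number as a block, 6 polymerase genes and 2834 of all genes passed. The deviations of same-numbered arrays correlated at −0.017 over all genes tested and the labels name no shared batch, so the arrays were taken to share only a number. No background level was available near the array median, which limits POLR1A, POLR1B, POLR3D, POLR2M and POLR2J4 most.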
